A study of Homo sapiens with 6 samples.

Results

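FOS, JUN and EGR genes encode transcription factors. Many of these genes, though not all, belong to the immediate early class, which cells switch on within minutes of a stimulus and without new protein synthesis. FOS proteins (FOS, FOSB, FOSL1 and FOSL2) pair through a leucine zipper with JUN proteins (JUN, JUNB and JUND) to form the factor AP-1, whereas EGR proteins bind GC-rich DNA through zinc fingers. Their genes are switched on by MAP kinases, through serum response factor and its ETS partners at CArG boxes and through CREB at cyclic AMP response elements. HEK293 cells, in which they were measured, are an established human line of embryonic kidney origin.

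The 10 genes FOS, FOSB, FOSL1, FOSL2, JUN, JUNB, JUND, EGR1, EGR2 and EGR3 were chosen by name, through the probe sets whose annotation lists 1 of them and no other gene. Of these, 9 were measured, each by 1 probe set, among 18377 genes that had a probe set of their own, and EGR2 was not analysed here. Total RNA was compared on Affymetrix HuGene ST arrays between the line labelled HEK-BAHD1 and its isogenic control line labelled HEK-CT, with 3 arrays each. HEK-BAHD1 cells were described as carrying a single integrated copy of the BAHD1 cDNA, which encodes a heterochromatin factor, under the cytomegalovirus promoter. The control line carried an out-of-frame β-galactosidase insert according to the sample labels and an empty vector according to the paper. Both lines came from a Flp-In T-REx derivative of HEK293, were kept in hygromycin and serum, and were each 1 stable pool of transfectants grown in separate flasks. The spread behind each p-value is therefore that of flasks of the same pool. By the account in the supplement, RNA of HEK-BAHD1 replicate 2 was taken at a later passage than that of HEK-BAHD1 replicate 1 and of the control line. That account names no replicate 3 and does not say how its replicates map to the 3 arrays of each line.

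BAHD1, which checks the labels, had a log2 signal of 6.75, 7.0 and 6.76 on the arrays labelled HEK-BAHD1, against 10.06, 9.81 and 9.93 on those labelled HEK-CT. The overexpressed gene was therefore lower on the arrays that carry its name (log2 fold change -3.10, standard error 0.093, adjusted p = 3.12e-05 from limma), which goes against the labels. By quantitative PCR, the study measured more BAHD1 mRNA in its HEK-BAHD1 line than in the control line. On immunoblots of chromatin extracts it detected the protein in the HEK-BAHD1 line and not in the control line. The labelled direction on these arrays therefore opposes that of the study. The symbols of the X-linked genes in its supplementary list of those lower in HEK-BAHD1 matched 60 probe sets, and all 60 had a higher mean under the HEK-BAHD1 label. That list came from the study's own array comparison of these lines. Its matched probe sets show that the labelled direction opposes that of the study. They are no independent check of which labels are right. All directions below are those of the labels as deposited, and exchanging the labels would turn every one of them round. Array medians lay between 5.46 and 5.56. Of the markers of the HEK293 lineage, VIM and NEFL had log2 signals of at least 11.01 and 9.69 on the 6 arrays, NEFM lay between 4.21 and 5.47, and PAX2 between 5.60 and 5.98. VIM was called lower under the HEK-BAHD1 label (log2 fold change -0.28, by the rule given below), and NEFL and NEFM higher (0.40 and 0.77), and the part of these differences in the results was not tested. PTPRC and CD3E of blood cells and PECAM1 and CDH5 of endothelium did not exceed 4.69 on any array. These arrays give no detection call, and signals of different probe sets also differ by probe affinity, so each gene is compared below with itself alone.

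The promoters of FOS and FOSB, the genes whose levels differed, are shown with those of FOSL2 and EGR1, whose levels did not pass the test. Each is the RefSeq window from 250 bases before to 50 bases after the transcription start in GRCh38.p14, on the plus strand, with matches to 4 motifs in capitals. The windows are FOS at chr14:75278578-75278877, FOSB at chr19:45467746-45468045, FOSL2 at chr2:28392608-28392907 and EGR1 at chr5:138465229-138465528.
FOS: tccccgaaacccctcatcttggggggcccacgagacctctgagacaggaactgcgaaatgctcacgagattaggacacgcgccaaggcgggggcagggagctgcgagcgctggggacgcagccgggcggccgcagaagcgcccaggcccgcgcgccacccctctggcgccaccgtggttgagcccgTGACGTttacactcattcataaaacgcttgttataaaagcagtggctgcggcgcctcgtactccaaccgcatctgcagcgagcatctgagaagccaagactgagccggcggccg
FOSB: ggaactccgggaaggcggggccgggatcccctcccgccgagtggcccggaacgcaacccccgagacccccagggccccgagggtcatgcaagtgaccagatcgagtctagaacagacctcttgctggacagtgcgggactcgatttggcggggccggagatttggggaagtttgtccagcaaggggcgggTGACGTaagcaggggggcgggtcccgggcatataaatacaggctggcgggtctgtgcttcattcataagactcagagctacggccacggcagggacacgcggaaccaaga
FOSL2: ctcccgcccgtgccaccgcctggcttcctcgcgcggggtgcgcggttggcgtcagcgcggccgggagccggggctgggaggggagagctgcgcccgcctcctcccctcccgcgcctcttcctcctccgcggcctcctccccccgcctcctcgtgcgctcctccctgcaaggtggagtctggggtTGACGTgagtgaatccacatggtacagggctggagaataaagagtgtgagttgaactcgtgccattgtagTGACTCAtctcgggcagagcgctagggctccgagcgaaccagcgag
EGR1: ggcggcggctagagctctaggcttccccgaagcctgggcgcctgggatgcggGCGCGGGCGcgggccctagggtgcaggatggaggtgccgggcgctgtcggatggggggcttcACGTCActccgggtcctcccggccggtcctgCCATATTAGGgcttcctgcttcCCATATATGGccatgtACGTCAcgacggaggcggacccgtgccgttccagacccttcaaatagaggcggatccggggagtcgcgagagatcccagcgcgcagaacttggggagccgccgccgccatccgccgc

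The motifs were searched on both strands. They were TGACGT, the core of the cyclic AMP response element, TGANTCA, the AP-1 site, GCGNGGGCG, an EGR site, and the CArG box by its usual consensus. TGACGT began 64 bases before the start in FOS, 60 in FOSB and 66 in FOSL2, and it lay in 7.98% of the 35116 promoter windows of this length. Within these windows FOS and FOSB held this motif alone of the 4. FOSL2 also held TGANTCA, found in 7.71% of windows, just after its start. Bases further upstream were not searched, so a motif missing from a window, such as a CArG box in FOS, may lie outside it. EGR1 held a pair of CArG boxes, which began 105 and 83 bases before its start, and 1.29% of windows held at least 1 such box. EGR1 further held TGACGT as its reverse complement in a pair of places and GCGNGGGCG once, a motif found in 9.43% of windows. JUND matched TGACGT, and the windows of JUN and JUNB matched none of the 4. FOSL1 and EGR3 were not searched. These matches describe the letters of the windows and not the binding of a factor.

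FOS and FOSB were lower under the HEK-BAHD1 label, and none of the other 7 measured genes passed the test in either direction. A gene was called at an adjusted p under 0.05 from limma, with the Benjamini-Hochberg adjustment over 21062 probe sets, and a difference of group medians above 0.2 on the log2 scale. With this rule 13.2% of all probe sets were called, 6.39% lower and 6.79% higher, against which stand 2 of 9 members lower, too few genes to read as a share. Of the members 0 were higher in limma, and also 0 with the LPE test or at a p below 0.05 before adjustment. The LPE test pools the error of genes of like intensity. The median log2 fold change was -0.05 over the 9 genes and 0.0033 over all probe sets.

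**Figure D1:**
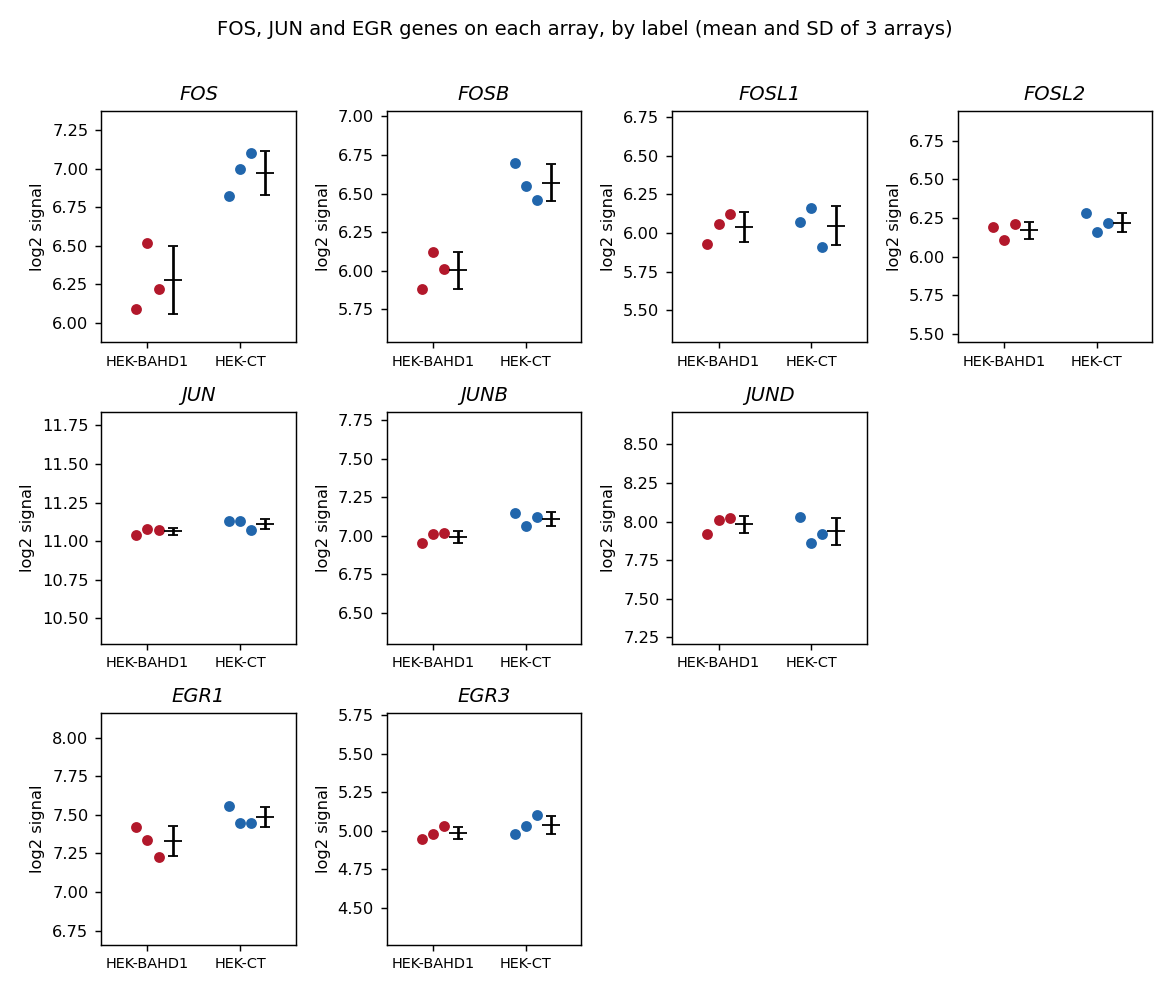
Log2 signal (vertical axes, all of the same span) of the 9 measured genes on the arrays labelled HEK-BAHD1 (red) and HEK-CT (blue); each point is an array in the order of replicates 1 to 3, with the mean and SD of the 3 arrays drawn to its right. FOS and FOSB lie clearly apart between the labels, while JUN, between 11.04 and 11.13, hardly moves.

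FOS is the prototype of its family and among the fastest genes to be induced. Replicates 1, 2 and 3 labelled HEK-BAHD1 had log2 signals of 6.09, 6.52 and 6.22, against 6.82, 7.0 and 7.10 in replicates 1, 2 and 3 labelled HEK-CT. The groups did not overlap, and the highest array labelled HEK-BAHD1 lay 0.30 below the lowest labelled HEK-CT. The means were 6.28 ± 0.22 on the arrays labelled HEK-BAHD1 and 6.97 ± 0.14 on those labelled HEK-CT (SD, n = 3 each). This gave a log2 fold change of -0.70 (standard error 0.12, 95% interval -0.98 to -0.42, adjusted p = 0.0109 from limma), a 1.62-fold difference in linear signal. By the size of its log2 fold change FOS ranked 218 among the 21062 probe sets.

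FOSB, a close relative of FOS that is also induced early, moved with it. In replicates 1, 2 and 3 labelled HEK-BAHD1 the log2 signals were 5.88, 6.12 and 6.01, against 6.70, 6.55 and 6.46 in replicates 1, 2 and 3 labelled HEK-CT. The groups were apart by 0.34, and the spread within each line was close to that of the other, with means of 6.0 ± 0.12 on the arrays labelled HEK-BAHD1 and 6.57 ± 0.12 on those labelled HEK-CT (SD, n = 3 each). The log2 fold change was -0.57 (standard error 0.086, 95% interval -0.77 to -0.37, adjusted p = 0.00724 from limma), a 1.48-fold difference in linear signal. FOSB ranked 414 by the size of its change. Both genes had their lowest value on replicate 1 and their highest on replicate 2 among the arrays labelled HEK-BAHD1, whereas among those labelled HEK-CT the replicate that was highest for FOS was lowest for FOSB.

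The other FOS relatives, FOSL1 and FOSL2, lack the strong activation domain of FOS. FOSL1 had a log2 signal of 5.93, 6.06 and 6.12 on the arrays labelled HEK-BAHD1, against 6.07, 6.16 and 5.91 on those labelled HEK-CT. The groups overlapped, and the log2 fold change was -0.01 (95% interval -0.20 to 0.18, adjusted p = 0.954 from limma), a value that turned positive in several alternatives. FOSL2 had 6.19, 6.11 and 6.21 on the arrays labelled HEK-BAHD1, against 6.28, 6.16 and 6.22 on those labelled HEK-CT. Here the groups overlapped as well, with a log2 fold change of -0.05 (95% interval -0.19 to 0.09, adjusted p = 0.630 from limma). For both genes the interval leaves out a change of the size measured for FOS or FOSB.

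Among the JUN genes, which encode the partners that FOS proteins need to bind DNA, the values were close between the lines. JUN had a log2 signal of 11.04, 11.08 and 11.07 on the arrays labelled HEK-BAHD1, against 11.13, 11.13 and 11.07 on those labelled HEK-CT. The arrays of both lines shared a narrow range and met at 11.07, and the log2 fold change of -0.05 did not pass (95% interval -0.17 to 0.07, adjusted p = 0.603 from limma). JUNB, a weaker activator than JUN, had 6.95, 7.01 and 7.02 on the arrays labelled HEK-BAHD1, against 7.15, 7.06 and 7.12 on those labelled HEK-CT. The groups did not overlap, by a margin of 0.04, but the log2 fold change of -0.12 did not pass (95% interval -0.24 to 0.01, adjusted p = 0.202 from limma). JUND, the member that is usually expressed without a stimulus, had 7.92, 8.01 and 8.02 on the arrays labelled HEK-BAHD1, against 8.03, 7.86 and 7.92 on those labelled HEK-CT. These groups overlapped, and JUND alone of the 9 genes had a higher mean under the HEK-BAHD1 label (log2 fold change 0.05, 95% interval -0.10 to 0.20, adjusted p = 0.687 from limma).

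EGR1, the most widely induced EGR factor, had a log2 signal of 7.42, 7.34 and 7.23 on the arrays labelled HEK-BAHD1, against 7.56, 7.45 and 7.45 on those labelled HEK-CT. All arrays labelled HEK-BAHD1 were below the others by at least 0.03, with a log2 fold change of -0.16 that did not pass (95% interval -0.31 to 0.0014, adjusted p = 0.175 from limma). EGR3, a related zinc finger factor, had 4.95, 4.98 and 5.03 on the arrays labelled HEK-BAHD1, against 4.98, 5.03 and 5.10 on those labelled HEK-CT. The EGR3 groups overlapped, and its log2 fold change was -0.05 (95% interval -0.18 to 0.08, adjusted p = 0.619 from limma). All EGR3 signals lay below 5.46, the lowest array median, so the gene may be near background. Over the 9 genes the groups thus did not overlap in 4, all lower, compared with 16.9% of all probe sets in that direction. HEK-BAHD1 replicate 1 was the lowest of its line for 7 of the 9 genes, and its array median of 5.5 was also the lowest of its line.

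**Figure D2:**
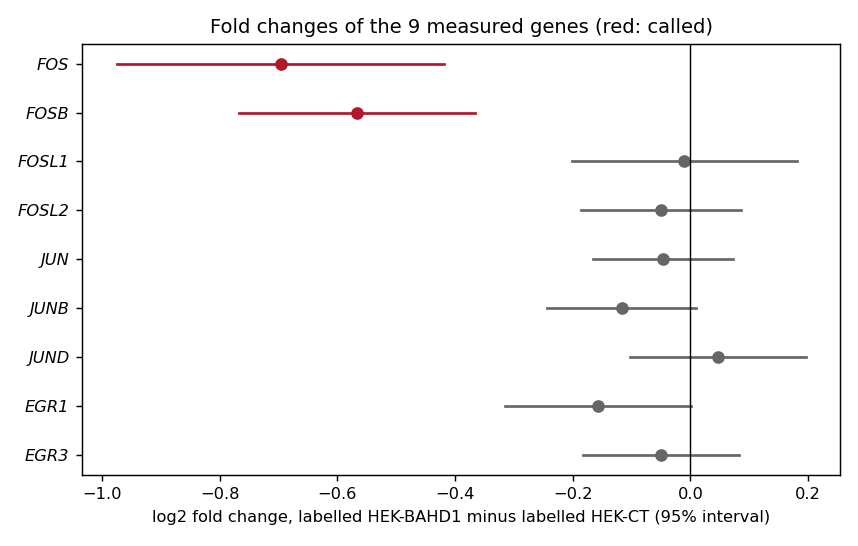
Log2 fold change (horizontal axis, HEK-BAHD1 label minus HEK-CT label) with its 95% interval from limma for the 9 measured genes; red marks the genes called. The intervals of FOS and FOSB end at -0.42 and -0.37, and those of the other 7 genes hold 0.

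FOS and FOSB were also set against other members within arrays, which removes any scaling that is common to an array. The pairs were chosen after the values were seen, so the ratios are read as a description. An exact permutation test over the 20 splits of the arrays cannot give a p below 0.1, so no conclusion is drawn from it. The log2 ratio of FOS to JUN differed by -0.65 between the arrays labelled HEK-BAHD1 and those labelled HEK-CT, and that of FOSB to JUN differed by -0.52. The ratio of FOS to FOSL2 differed by -0.65, that of FOS to EGR1 by -0.54 and that of FOSB to JUNB by -0.45, with no overlap between the lines in any of these. FOS to FOSB differed by -0.13, and its arrays overlapped.

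**Figure D3:**
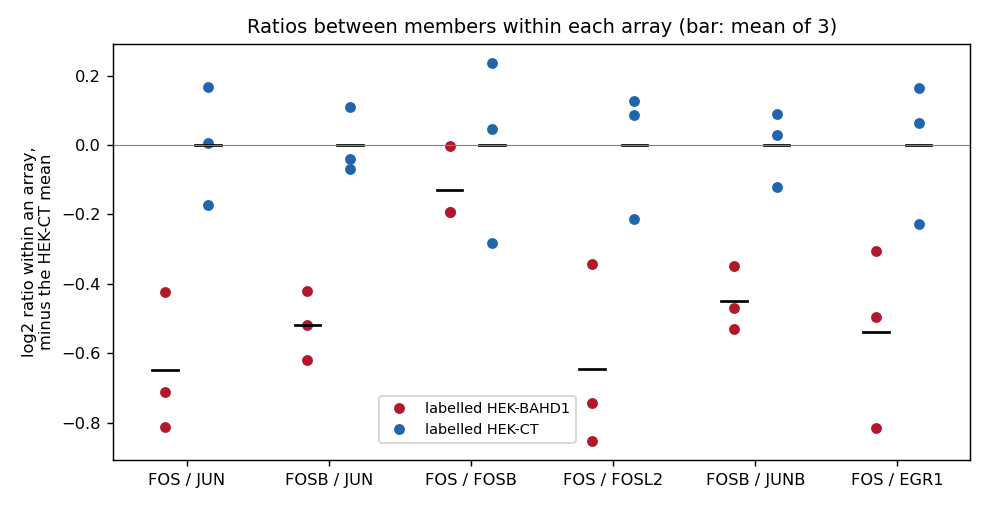
Log2 ratio of 2 genes within an array (vertical axis), after subtracting the mean of the arrays labelled HEK-CT, for 6 pairs; red points are arrays labelled HEK-BAHD1, blue points arrays labelled HEK-CT, and bars the means of 3. The FOS to JUN means differ by -0.65, while the FOS to FOSB arrays overlap.

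The genes beside FOS and FOSB on their chromosomes had medians near 0. Over the 40 measured genes nearest to FOS on chromosome 14, 20 on each side in gene order, the median log2 fold change was 0.01, with 3 called higher and 2 lower. The 40 nearest to FOSB on chromosome 19 had a median of 0.048, with 1 called higher and 0 lower. No neighbour was as low as the gene itself, the lowest being at -0.40 beside FOS and at -0.27 beside FOSB. JUNB lies among genes of chromosome 19 with lower values, since 9 of its 40 neighbours were called lower and their median was -0.16, and 24 of them were at or below JUNB. The part of that neighbourhood in the JUNB value was not tested.

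Genes around these factors in the pathway were read from 6 lists chosen with earlier results of these data known. Of the 133 genes listed, 118 were measured, with 18 called higher, 19 lower and 81 not called. By the same rule 6.79% of all probe sets were called higher and 6.39% lower. These shares stand beside the count of each list below, and no list was tested against them. Kinases and factors upstream of the immediate early genes gave few calls, with 1 of 18 measured genes higher, 0 lower and a median log2 fold change of 0.04. At a p below 0.05 before adjustment 1 of these genes was lower, and by the LPE test 0 were. ELK3, an ETS partner of serum response factor, was called higher with log2 signals of 6.95, 6.81 and 6.86 on the arrays labelled HEK-BAHD1, against 6.65, 6.48 and 6.6 on those labelled HEK-CT. Its log2 fold change of 0.30 (adjusted p = 0.0284 from limma) kept its call without HEK-BAHD1 replicate 2 or HEK-CT replicate 1, and lost it without any other array (adjusted p from 0.0723 to 0.0844 in limma) and with the LPE test (adjusted p = 0.132).

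Feedback inhibitors of MAP kinase signalling and of EGR proteins included 4 higher and 1 lower of 20, with a median of 0.055. DUSP1, a nuclear MAP kinase phosphatase that is itself an immediate early gene, was the lower one. It had 9.07, 9.23 and 9.30 on the arrays labelled HEK-BAHD1, against 9.67, 9.66 and 9.67 on those labelled HEK-CT, which do not overlap (log2 fold change -0.47, adjusted p = 0.00649 from limma). DUSP9, a cytoplasmic phosphatase of ERK, was higher by 0.47 on the log2 scale under the HEK-BAHD1 label (adjusted p = 0.0107 from limma). DUSP9 is among the X-linked genes that the study lists as lower in HEK-BAHD1, as is the AP-1 target TIMP1, and the labelled direction of both is the opposite. The Sprouty inhibitors SPRY4 and SPRY1 were at 0.36 and 0.29, and LRIG1, an inhibitor of receptor kinases, was at 0.27. Of these 3, each kept its call in limma with 1 array left out in a single case only, SPRY4 without HEK-CT replicate 2, SPRY1 without HEK-CT replicate 1 and LRIG1 without HEK-CT replicate 3 (adjusted p = 0.0353, 0.0374 and 0.0476). In the other 5 fits the adjusted p from limma was at least 0.0625, 0.0611 and 0.0525 for SPRY4, SPRY1 and LRIG1. The count of 4 higher became 1 without HEK-BAHD1 replicate 1 or 3 and 2 without any other array. Without HEK-BAHD1 replicate 2 these 3 genes all lost their calls, so those 2 included a gene that was not called with all arrays. SPRY4 and SPRY1 also lost their calls with the LPE test (adjusted p = 0.117 and 0.0877), and when each array was centred on its median, after which the list had 2 higher and 2 lower.

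Of 13 other bZIP proteins that can pair with FOS or JUN, 3 were lower and 0 higher, with a median of -0.097. At a p below 0.05 before adjustment 2 genes were higher, and by the LPE test 0. ATF3, a stress-induced partner of JUN, had 6.64, 6.70 and 6.77 on the arrays labelled HEK-BAHD1, against 7.26, 7.34 and 7.30 on those labelled HEK-CT. Its groups were widely apart (log2 fold change -0.60, standard error 0.058, adjusted p = 0.00147 from limma). ATF2, a partner of JUN that is activated by the same kinases, was at -0.31 (adjusted p = 0.00889 from limma). MAFG, a small MAF protein, was at -0.27 (adjusted p = 0.0363 from limma), and with 1 array left out it kept this call only without HEK-CT replicate 2 (adjusted p = 0.0272, and at least 0.0737 in the other 5 fits).

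The other immediate early genes split, with 9 lower, 3 higher and 21 not called of 33, and a median of -0.093. With 1 array left out, the lower count was 7 in each of the 6 fits, and the higher count stayed at 3. CCN1, a matricellular protein, was the lowest, with 6.68, 6.82 and 6.76 on the arrays labelled HEK-BAHD1, against 7.93, 8.24 and 8.03 on those labelled HEK-CT (log2 fold change -1.31, adjusted p = 0.000375 from limma). ID2 and ID3, inhibitors of helix-loop-helix factors, were at -0.86 and -0.76, and the kinase PLK2 at -0.74 (adjusted p at most 0.0021 from limma). Against these stood MYC, the growth-promoting transcription factor. It had 9.15, 9.15 and 9.13 on the arrays labelled HEK-BAHD1, against 8.16, 8.03 and 8.01 on those labelled HEK-CT, a log2 fold change of 1.08 (adjusted p = 0.000252 from limma). The small GTPase GEM was at 0.63 and the pseudokinase TRIB1 at 0.49. Thus MYC and FOS, which serum induces together in many cells, had opposite signs here.

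Of 26 measured genes known as targets of AP-1 or EGR factors in other systems, 9 were higher and 3 lower, with a median of 0.092. CCND1, the cyclin D1 gene, had 8.48, 8.50 and 8.52 on the arrays labelled HEK-BAHD1, against 6.76, 6.51 and 6.35 on those labelled HEK-CT (log2 fold change 1.96, adjusted p = 0.000176 from limma). The hyaluronan receptor CD44 was at 1.10, the growth factor TGFB1 at 0.98 and the gelatinase MMP2 at 0.92. HBEGF, an EGF family ligand that is also induced early, was the lowest of the list at -0.82 (adjusted p = 0.000463 from limma). The collagenase MMP13 followed at -0.44 and the urokinase receptor PLAUR at -0.24. MMP13 signals did not exceed 4.25 on any array, and those of MMP1, counted among the higher genes, did not exceed 3.47. Both genes thus lay below 4.69, the highest signal of the blood and endothelial markers, and may be near background. EREG, also counted among the higher genes, did not exceed 4.83 on any array. MMP2 did not exceed 5.03 on the arrays labelled HEK-CT. These values lay below 5.46, the lowest array median, and may be near background as well. The MMP2 call was lost without HEK-BAHD1 replicate 2 or 3 (adjusted p = 0.0517 and 0.059 in limma) and that of MMP13 without HEK-CT replicate 3 (0.0504). PLAUR kept its call with 1 array left out only without HEK-CT replicate 1 (adjusted p = 0.0448, and at least 0.0676 otherwise). The list had 5 higher without HEK-BAHD1 replicate 2 or 3, where other genes besides MMP2 also lost their calls. Without HEK-CT replicate 3 it had 1 lower, HBEGF. With the LPE test MMP13 and PLAUR lost their calls (adjusted p = 0.169 and 0.0726), and the list had 6 higher and 1 lower.

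Heat shock genes, which also respond to handling of cells, were read beside these values. Of 8 measured, 1 was higher and 3 were lower, with a median of -0.078 and a range from -0.71 to 0.88. The small heat shock protein HSPB1 was at 0.88 and the co-chaperone DNAJB4 at -0.71 (adjusted p = 0.00469 and 0.00242 from limma). HSPH1 and DNAJA1, a further chaperone and a co-chaperone, were at -0.28 and -0.27. With 1 array left out, HSPH1 kept its call only without HEK-BAHD1 replicate 1 and DNAJA1 only without HEK-CT replicate 1 (adjusted p = 0.0447 and 0.0374 in limma, and at least 0.067 and 0.0563 otherwise), and the lower count was 1 without HEK-BAHD1 replicate 2 or 3 or HEK-CT replicate 2 or 3. The part of handling in the FOS and FOSB values was not tested.

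**Figure D4:**
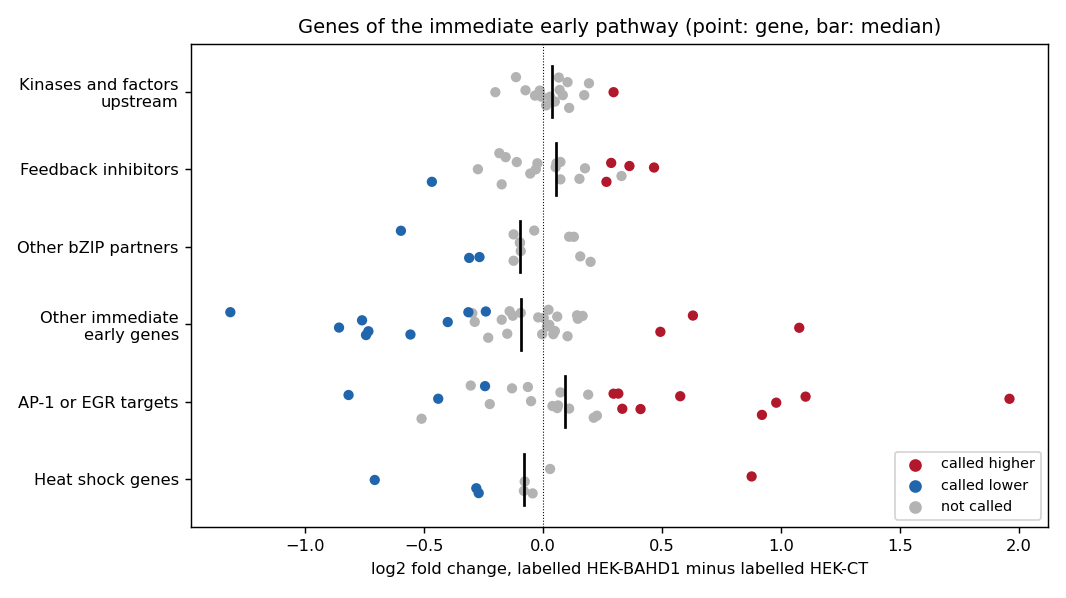
Log2 fold change (horizontal axis, HEK-BAHD1 label minus HEK-CT label) of the 118 measured genes of the 6 pathway lists, 1 row per list; each point is a gene, coloured by its call, and the black bar is the median of the list. CCN1 at -1.31 and CCND1 at 1.96 mark the ends.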

How the data were processed

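Total RNA of 3 cultures labelled HEK-BAHD1 and 3 labelled HEK-CT was hybridised to Affymetrix HuGene ST arrays. The authors deposited log2 values made from the probe intensities with RMA, a method of background correction, normalization and summary over the probes of each probe set. Its version and the genome build of the array annotation are not given in the sources used here. Of 28869 probe sets, 19310 named 1 gene, 1752 several and 7807 none, and symbols were updated through gene identifiers for 19279 of those naming 1. The 21062 that named a gene were fitted with limma 3.58.1 in R 4.3.3. The paper names the LPE test, which was written anew with 100 bins of intensity and a smoothing spline (10 degrees of freedom), and served as an alternative. The threshold of 0.2 on medians is that of the paper. A listed gene with more than 1 probe set was read from the brightest. The members and gene lists were chosen with earlier results of these data known. From each list up to 4 called genes in each direction are named, by size of change. Alternatives were other tests, scalings, filters, variance models and call rules, a block for the replicate number, and removal of each array in turn. Precision is limited by the number of arrays. The series number in the paper differs from that of these arrays, and they were taken as the same experiment from the sample labels.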

Additional observations from a re-analysis of the deposited data

How the results depend on the processing

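FOS and FOSB were called lower, and no other member was called, under all 16 alternatives, which included a threshold of 0.5 on medians. With 1 array left out, the log2 fold change of FOS ranged from -0.82 to -0.60 (adjusted p at most 0.0447 from limma) and that of FOSB from -0.63 to -0.50 (at most 0.0297). FOSL1 turned to 0.0031 with array weights and, with 1 array left out, lay between -0.078 for HEK-CT replicate 3 and 0.047 for HEK-CT replicate 2. Over the whole array, 1430 transcripts were higher and 1345 lower. With 1 array left out there were 806 to 938 higher and 581 to 937 lower. With a median difference above 0.5 there were 335 and 227, by construction. Centring the arrays on their medians made 36.6% of calls higher, against 51.5% before. Over the pathway lists, 18 higher and 19 lower became 8 and 9 above 0.5, and 10 to 16 higher and 12 to 15 lower with 1 array left out. With the replicate number as a block, the lower count over the array was 829, while both FOS and FOSB kept their calls (adjusted p = 0.0136 and 0.0249 from limma). Deviations of same-numbered arrays correlated at -0.077, 0.074 and -0.038 across probe sets, so the numbers were not taken to pair the cultures. No member had several probe sets, so the mean of these could not be run as an alternative. Of the 377 alternative values of named list genes, 316 kept their direction and call and 61 lost the call, the cause of which was not tested. Besides the losses given above for the LPE test, for centring and for single arrays, SPRY4, LRIG1, MAFG, PLAUR and HSPH1 lost the call with all probe sets tested, SPRY1, LRIG1, MAFG, PLAUR, HSPH1 and DNAJA1 with the replicate block, and SPRY4 when quantile normalization was repeated.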
